A study of Mus musculus with 2 samples.

Results

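The genes described are those of the transforming growth factor beta (TGF-beta) ligands Tgfb1, Tgfb2 and Tgfb3, their receptors Tgfbr1, Tgfbr2 and Tgfbr3, the feedback inhibitors Smad7 and Skil, and the targets Tgfbi and Bhlhe40. They were taken by the gene name on the array, which gave 14 probes for 10 of 20054 named genes. RNA came from expandable hepatoblasts, that is, cultured progenitors from the liver of C57BL/6 mice, at passage 20 and at passage 5, with 1 array per passage. Cells of both passages were grown on Matrigel or laminin, the labels not saying which passage had which, in medium with 5 mM nicotinamide, 10 ng/ml epidermal growth factor, 3 µM CHIR99021 (an inhibitor of the kinase GSK3), 5 µM lysophosphatidic acid, 0.5 µM sphingosine 1-phosphate and 2 µM E-616452. E-616452 blocks the kinase of the TGF-beta type I receptor, the product of Tgfbr1, so both passages carried a block of the pathway described here, and no culture without it was analysed. Per the labels the passages came from independent experiments, so passage and experiment cannot be told apart. With 1 array per passage, each difference compares 2 arrays, has no replicate check and carries no p-value.

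TGF-beta is secreted as a latent dimer that is held in the matrix and released at the cell surface. The free ligand binds the type II receptor, which recruits and phosphorylates the type I receptor; the type I kinase then phosphorylates SMAD2 and SMAD3, which enter the nucleus with SMAD4. Smad7 and Skil are themselves induced by this signal and damp it, which is why they are read as feedback genes. In the liver TGF-beta restrains epithelial growth and drives stellate cells to make scar matrix.

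The share of the 41158 gene probes whose signal cleared background by the scanner software's criterion was 46.1% at passage 20 and 45.5% at passage 5, and no spot was saturated. Levels below are log2 scanner signals after subtraction of the 75th percentile of the same array; a difference is the passage 20 level minus the passage 5 level. The median difference of the 11798 named genes measured (well above background on at least 1 array) was 0.07 log2. Of the hepatoblast markers, 10 of 13 were measured, while Dlk1, Alb and Ttr were well above background at neither passage. Of the 10, 2 were at least 2-fold higher, the secreted phosphoprotein gene Spp1 (2.77 log2) and Cdh1 (1.53 log2), and 1 was lower, the epithelial adhesion gene Epcam (-1.17 log2, but -0.57 with normexp background correction). The other 7 were within 2-fold. They were Hnf4a, Foxa2, Krt8, Krt18, Afp, Krt19 and Sox9, of which Krt19 (-0.52 log2) and Sox9 (-0.51 log2) differed most.

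The ligand, receptor and feedback genes were mostly at similar levels at passage 20 and passage 5, and 3 genes were lower at passage 20. These were the ligand gene Tgfb1 and both targets, Tgfbi and Bhlhe40. Of the 10 genes, 9 were measured, each above background at both passages. None of the 9 was 2-fold higher (0), 3 were at least 2-fold lower and 6 lay within 2-fold. Among all measured genes 9.00% passed 2-fold, 3.26% higher and 5.74% lower. The genes were chosen with some of these differences already known, so nothing is read from the share of 3 in 9. Their median difference was -0.08 log2, with 4 positive and 5 negative values. RNA of a whole culture does not tell fewer cells of a type from less RNA per cell.

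**Figure D1:**
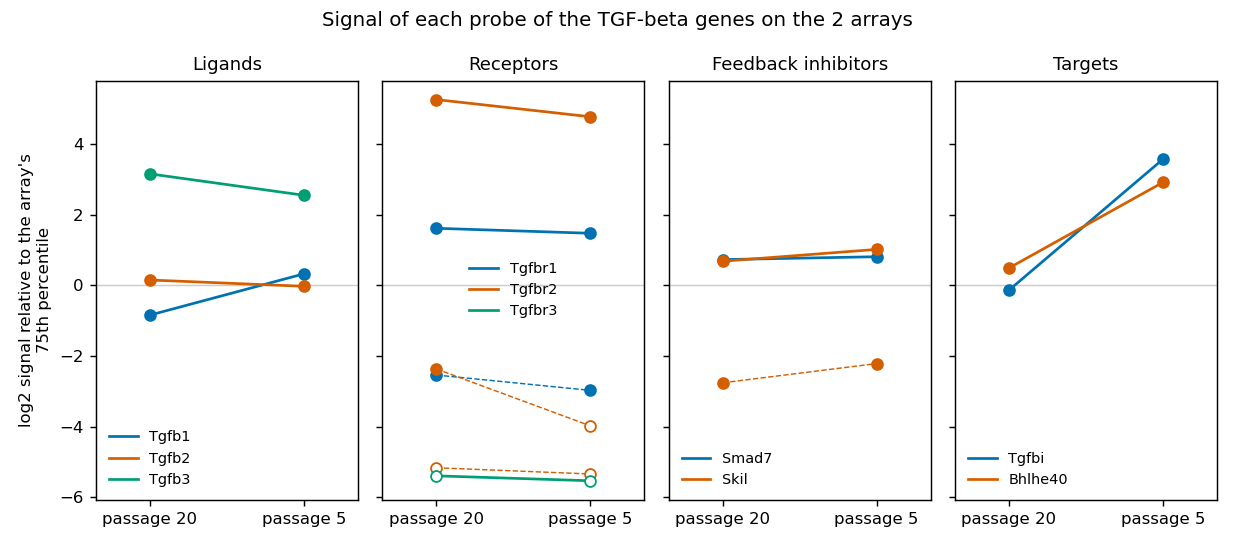
Log2 signal relative to the array's 75th percentile (vertical axis) of each of the 14 probes at passage 20 and passage 5; lines join the values of 1 probe, solid for the probe used for a gene and dashed for its other probes, and open circles were not well above background. Lines of Tgfbi, Bhlhe40 and Tgfb1 lie lower at passage 20. Of the other solid lines, Tgfb3 differs by 0.61, Tgfbr2 by 0.49 and Skil by -0.34 log2, and the rest run nearly level. Heights of different probes cannot be compared.

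Tgfb1 and Tgfb3 differed in opposite directions. Tgfb1 encodes the most widely expressed ligand, and its probe was printed in 10 spots. Its signal was 430 to 588 at passage 20 (median 468), against 1332 to 1396 at passage 5 (median 1361). The ranges of the spots did not overlap, and the spread was wider at passage 20. Relative to the 75th percentile, Tgfb1 was at -0.84 ± 0.12 log2 at passage 20 and 0.33 ± 0.025 at passage 5 (SD over 10 spots of 1 array, a technical error only). Spot by spot the difference was -1.17 ± 0.12 log2 (SD, 10 spots), which is 2.25-fold lower, with single spots from 1.81-fold to 2.44-fold. The error the scanner software gives for a difference of these spots was larger than this SD, at 0.22 log2. Tgfb1 had the 309th lowest difference of 10749 genes above background on both arrays. With normexp background correction, which models background in another way, it was 1.95-fold lower and no longer passed 2-fold.

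**Figure D2:**
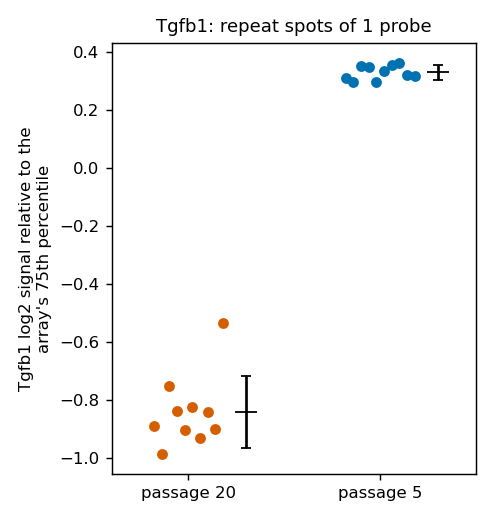
Log2 signal of the Tgfb1 probe relative to the array's 75th percentile (vertical axis) in its 10 repeat spots at passage 20 and at passage 5; the bar beside each group is the mean with its SD over spots. All 10 spots at passage 20 lie below all 10 at passage 5, and the highest spot at passage 20, with a signal of 588, stands above the other 9 there.

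Tgfb2 and Tgfb3 encode the other ligands. The Tgfb2 signal was 949 at passage 20 and 1067 at passage 5, which after scaling is 0.15 and -0.02 log2. This difference of 0.18 log2 was smaller than the error the scanner software gives for it (0.21), and its sign turned to -0.13 when the arrays were scaled on the median and to -0.04 when they were scaled on the external spike-in RNA. The Tgfb3 signal was 7638 at passage 20 and 6380 at passage 5, or 3.16 and 2.56 log2 after scaling. Tgfb3 was thus 1.52-fold higher, 0.61 log2, with a scanner error of 0.20. It was the 927th highest of 10749 genes, and its difference was 0.30 log2 with median scaling and 0.39 with spike-in scaling.

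Both signalling receptors were well above background and within 2-fold. Tgfbr1 encodes the type I receptor kinase that E-616452 blocks. Its brighter probe read 2622 at passage 20 and 3023 at passage 5, or 1.62 and 1.48 log2 after scaling, a difference of 0.14 log2. As for Tgfb2, the sign depended on the scaling: it was -0.17 with median scaling and -0.07 with spike-in scaling. A dimmer Tgfbr1 probe, whose 60 bases span 3659 bases of the genome and so cross an exon junction, read 147 at passage 20 and 138 at passage 5 and differed by 0.44 log2, with a scanner error of 0.40.

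Tgfbr2 encodes the type II receptor, which binds the ligand. Its brightest probe read 32883 at passage 20 and 29840 at passage 5, or 5.27 and 4.78 log2 after scaling, 0.49 log2 higher at passage 20. Its other probes did not give a usable difference of the same kind. The probe that lies 22041 bases away on chromosome 9 read 165 at passage 20 and 68.7 at passage 5, where it was not well above background, so it was only at least 1.94-fold higher. The third probe, 42690 bases away, was well above background at neither passage. The mean over measured probes made the Tgfbr2 difference 0.72 log2, in place of the value from the brightest. The measured probes are shown because they read different stretches of 1 gene (5′ to 3′, the second whole, the first by its leading 30 of 60 bases):
Tgfbr2 probe at chr9:115997155-115997214 (mm9, minus strand): tctagcggggaatttacagaatgctggtcc
Tgfbr2 probe at chr9:116019196-116019255 (mm9, minus strand): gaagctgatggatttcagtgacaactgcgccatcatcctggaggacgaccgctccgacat

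Tgfbr3 encodes betaglycan, the co-receptor that presents ligand, above all TGF-beta2, to the type II receptor. Its single probe read 20.2 at passage 20 and 23.4 at passage 5 and was well above background at neither passage. No difference is given for it, and its level was not detectable on these arrays.

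Both feedback genes lay within 2-fold. Smad7 encodes the inhibitory SMAD that blocks the type I receptor and recruits ubiquitin ligases to it. Its signal was 1417 at passage 20 and 1907 at passage 5, or 0.73 and 0.81 log2 after scaling, a difference of -0.08 log2 against a scanner error of 0.21. Skil encodes SnoN, a co-repressor that holds SMAD complexes inactive. Its brighter probe read 1371 at passage 20 and 2203 at passage 5, or 0.69 and 1.02 log2 after scaling, and was 1.26-fold lower. The dimmer Skil probe, 4813 bases away, read 126 at passage 20 and 234 at passage 5 and was 1.46-fold lower. Both probes of Skil therefore lay on the same side of 0. Smad7 and Skil kept a negative difference in all 11 alternatives, from -0.39 to -0.07 log2 for Smad7 and from -0.65 to -0.31 for Skil. Some of the alternatives cannot change the Smad7 value, since it rests on 1 probe.

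The target genes had the largest differences of the set. Tgfbi encodes a secreted matrix protein with fasciclin domains that binds collagens and integrins and was named for its induction by TGF-beta. Its signal was 777 at passage 20, against 12987 at passage 5, or -0.13 and 3.58 log2 after scaling. The difference of -3.72 log2 had a scanner error of 0.21, and only 14 of 10749 genes had a lower one. Bhlhe40 encodes a basic helix-loop-helix repressor, also called DEC1, that responds to TGF-beta, hypoxia and the circadian clock. Its signal was 1200.3 at passage 20, against 8237 at passage 5, or 0.49 and 2.92 log2 after scaling. The difference of -2.43 log2, with a scanner error of 0.21, was the 53rd lowest. Each of these genes has 1 probe in 1 spot, so no second probe bears on it. Over the 11 alternatives Tgfbi was 11.5-fold to 16.3-fold lower and Bhlhe40 5.00-fold to 6.69-fold lower.

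The 3 lower genes were read by these probes (5′ to 3′, the Tgfb1 probe whole, the others by their leading 30 of 60 bases), given because each of the calls rests on 1 oligonucleotide:
Tgfbi probe at chr13:56740460-56740519 (mm9, plus strand): aaatgtgaatcaagcagtccggcattctgg
Bhlhe40 probe at chr6:108616309-108616368 (mm9, plus strand): agcagcggatggagcgtccttgctaaaaag
Tgfb1 probe at chr7:26489877-26489936 (mm9, plus strand): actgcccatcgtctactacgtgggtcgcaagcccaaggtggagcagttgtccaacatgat

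**Figure D3:**
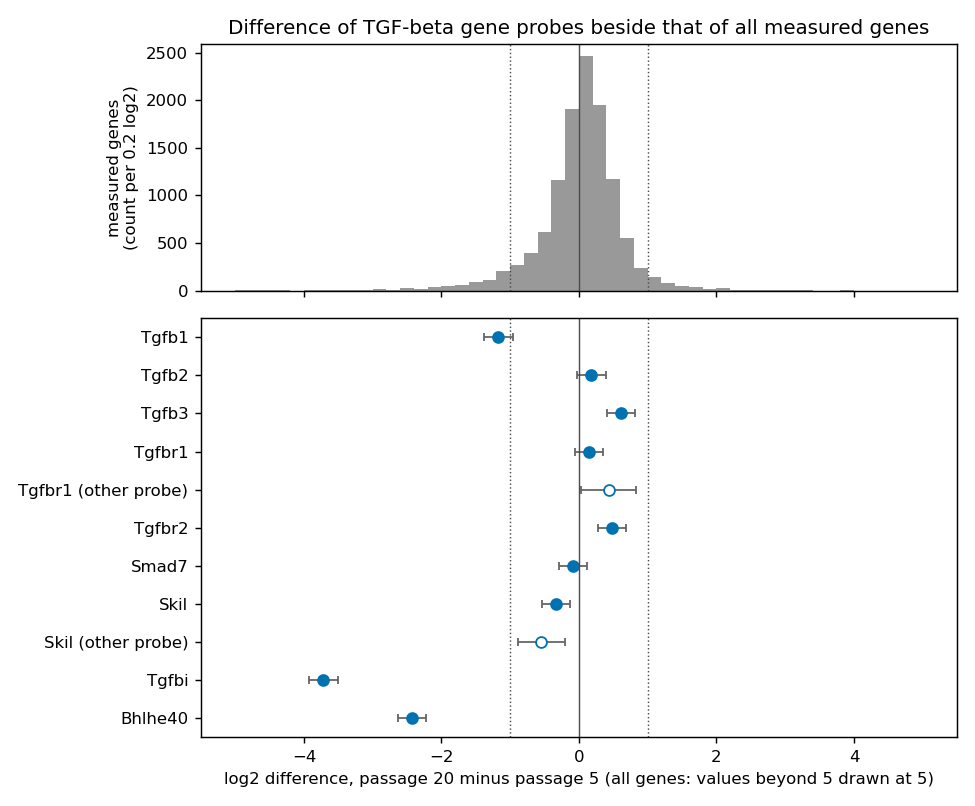
Upper panel: number of measured genes (vertical axis) by log2 difference, passage 20 minus passage 5 (horizontal axis). Lower panel: the difference of each probe above background on both arrays, filled for the probe used and open for another probe of the gene, with the scanner software's error as bar; dotted lines mark 2-fold. Tgfbi at -3.72 and Bhlhe40 at -2.43 lie in the far left tail of all genes, Tgfb1 at -1.17 just beyond 2-fold, and the rest within it.

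Promoter sequences from RefSeq (build GRCm38.p6) were on hand for 5 of the 10 genes. The 250 bases before the start are printed for Tgfbi and Tgfb1, which were lower, and for Tgfbr2, which was not. Capitals mark the SMAD-binding core CAGAC on either strand (GTCTG as its complement). The windows were also searched on both strands for the E-box CACGTG, the kind of site BHLHE40 binds, and the AP-1 site TGACTCA, and no search motif overlapped another in them:
Tgfbi, chr13:56609336-56609585, plus strand: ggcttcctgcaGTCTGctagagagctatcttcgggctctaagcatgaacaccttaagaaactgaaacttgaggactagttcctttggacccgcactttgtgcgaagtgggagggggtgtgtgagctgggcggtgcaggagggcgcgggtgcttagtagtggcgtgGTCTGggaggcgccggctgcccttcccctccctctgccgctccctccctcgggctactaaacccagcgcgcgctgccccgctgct
Tgfb1, chr7:25686752-25687001, plus strand: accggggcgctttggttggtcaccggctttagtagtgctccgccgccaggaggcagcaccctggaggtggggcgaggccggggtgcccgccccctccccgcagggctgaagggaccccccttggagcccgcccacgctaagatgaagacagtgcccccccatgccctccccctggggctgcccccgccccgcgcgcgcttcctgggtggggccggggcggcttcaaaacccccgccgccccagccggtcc
Tgfbr2, chr9:116175364-116175613, minus strand: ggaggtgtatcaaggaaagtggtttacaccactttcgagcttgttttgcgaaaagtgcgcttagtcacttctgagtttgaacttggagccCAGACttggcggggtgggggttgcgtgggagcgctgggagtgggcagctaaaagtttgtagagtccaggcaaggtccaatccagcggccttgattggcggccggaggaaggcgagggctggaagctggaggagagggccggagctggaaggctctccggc

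The CAGAC core was found at 2 places in the Tgfbi window, at 1 in the Tgfbr2 window and at 0 in the Tgfb1 window. It occurs in 42.2% of 32851 promoter windows of the same length, so its presence in a window is common. The E-box and the AP-1 site occur in 6.02% and 4.46% of windows and in none of the 3 printed. Of the remaining windows, that of Tgfb2 held 2 CAGAC cores and 1 E-box, and of the 2 of Tgfbr1, 1 held a single CAGAC core. A match is a description of the letters and says nothing of binding in these cells.

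Genes that act around the ligands and receptors were described by lists drawn up from general knowledge, with earlier results of these data known. With clock genes and the fasciclin-domain relatives of Tgfbi added, the lists held 110 genes, of which 84 were measured. Of the 84, 10 were at least 2-fold higher and 9 lower (22.6% past 2-fold, against 9.00% of all measured genes). Clock genes gave 1 of the higher and 4 of the lower calls, from 11 measured. The median of the 84 was 0.02 log2, against 0.07 for all measured genes. No test was made of any list.

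Storage and activation of latent TGF-beta held differences in both directions. Of 16 genes 10 were measured; 2 of them were higher and 2 lower, and the median was -0.05 log2. Itgb6, the beta chain of the integrin that frees latent TGF-beta on epithelial cells, read 1324 at passage 20, against 492 at passage 5, and was 3.42-fold higher; its other probe differed by 2.10 log2. Nrros, a protein that tethers latent TGF-beta on myeloid cells, was above background at passage 20 only and at least 2.36-fold higher. The integrin chain gene Itgb5 was 2.12-fold lower. Ltbp1, the main latent TGF-beta binding protein, was above background at passage 5 only and at least 2.12-fold lower. The Nrros call ended with normexp, median and loess scaling, and the Ltbp1 call with normexp; 3 genes were lower with quantile, median, spike-in, loess and detected-probe scaling and with the authors' values.

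Genes of the signalling core differed little. All 11 measured SMADs and SMAD cofactors were within 2-fold (median -0.03 log2), with Ep300 at 0.44, Smad2 at -0.38, Smad3 at -0.30 and Smad6 at -0.23 log2. The other probe of Smad3 was at 0.62 log2, on the other side of 0. All 7 measured co-receptors and receptor regulators were also within 2-fold (median -0.24 log2), the farthest being the decoy receptor gene Bambi at -0.77 log2, followed by Dab2 at -0.65, Tgfbrap1 at -0.37 and Cd109 at -0.24; another probe of Cd109, above background at passage 20 only, gave a bound of 0.59. Zfyve9, which encodes the SMAD anchor SARA, is not among the 7, since its brighter probe was well above background at neither passage. Its other probe read 272 at passage 20, against 23.4 at passage 5 where it was not above background, and was at least 3.19-fold higher; Zfyve9 is named after its values were seen. Of 12 further measured regulators of the pathway, mostly brakes like Smad7 and Skil, Pmepa1 alone passed 2-fold by the probe used. The list also held Rnf111, Usp4 and Usp15, which promote the signal and are not brakes. They are named after their values were seen. Pmepa1, a TGF-beta-induced protein that sequesters SMAD2 and SMAD3, read 441 at passage 20, against 1448 at passage 5, and was 2.58-fold lower; its other probe was at -1.17 log2. With normexp the Pmepa1 difference was -0.92 log2, under 2-fold. Wwp1 differed by 0.38, Tgif2 by 0.26 and Ski by 0.22 log2, with another Ski probe at 1.81. The brightest probes of Usp15 and Rnf111 were at 0.06 and -0.07 log2, but dimmer probes of these genes reached 1.71 and 1.13.

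Genes known to be induced by TGF-beta did not follow Tgfbi and Bhlhe40 as a group. Of 31 measured, 6 were higher and 3 lower; the median was 0.23 log2. Ccn2 read 15793 at passage 20, against 3724 at passage 5, and Ankrd1 read 28320.4 at passage 20, against 7094 at passage 5. Ccn2 and Ankrd1, which also answer to the coactivators YAP and TAZ, were 5.39-fold and 5.08-fold higher, and Itgb6 is in this list too. Tnc (2.02-fold) and Igfbp3 (2.07-fold) were among the higher genes, and Tagln (2.91-fold), Pmepa1 and Bcl2l11 (-1.32 log2) are the lower ones; Tnc, Igfbp3, Tagln and Bcl2l11 are named after their values were seen. Another Bcl2l11 probe was at -0.28 log2. Nox4, above background at passage 5 only, had a bound of -0.98 log2 and so counted as within 2-fold. Spsb1 also counted there, but its other probe, above background at passage 5 only, gave a bound of -1.96 log2. In the other direction, another probe of Tsc22d1 was at 1.97 log2 and another of Fn1 gave a bound of 1.86. Nox4, Spsb1, Tsc22d1 and Fn1 are named after their values were seen. The Tnc call ended under 7 of 11 alternatives and the Igfbp3 call under 4. With median, spike-in or loess scaling the list had 4 genes higher and 5 lower, and the Tagln and Bcl2l11 calls ended with the mean over probes. The other Tagln probe read 21.6 at passage 20, against 146 at passage 5, and was above background at passage 5 only. It thus entered the mean as a bound of -0.28 log2, on the same side of 0.

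Of the 6 genes known to be repressed by TGF-beta in epithelial cells, 2 were higher and 0 lower. These were Myc, a driver of growth, at 1.80 log2 and Cdh1, the gene of the adhesion protein E-cadherin, at 1.53 log2. Id3 was at -0.65 and Id2 at 0.48 log2. The relatives of Tgfbi with fasciclin domains, Postn, Stab1 and Stab2, were well above background at neither passage.

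**Figure D4:**
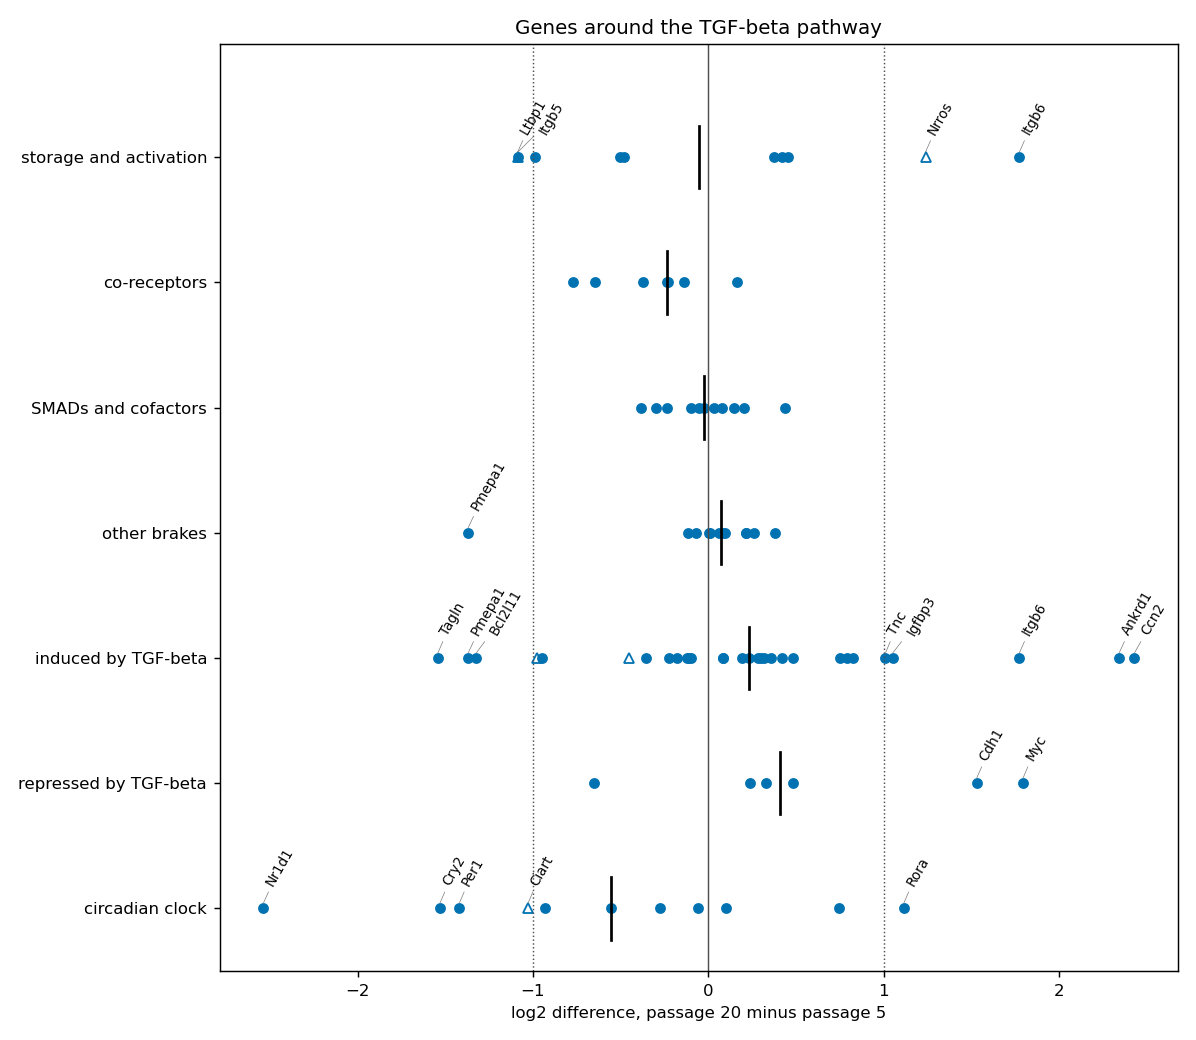
Log2 difference, passage 20 minus passage 5 (horizontal axis), of measured genes in 7 lists (rows), among them the circadian clock. Circles were above background on both arrays, and open triangles, above it on 1 array only, are bounds. Black bars are list medians and dotted lines mark 2-fold. The row of other brakes also holds Rnf111, Usp4 and Usp15, which promote the signal. Names stand beside genes drawn past 2-fold. SMADs and cofactors lie between -0.38 and 0.44, while genes known as induced by TGF-beta spread from -1.54 to 2.43.

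Clock genes were included because Bhlhe40 is also a part of the circadian loop, in which it represses transcription driven by CLOCK. Of 17 clock genes, 11 were measured; 1 was higher, 4 were lower and the median was -0.56 log2. Nr1d1, which encodes the nuclear receptor REV-ERB alpha, read 225 at passage 20, against 1664 at passage 5, and was 5.81-fold lower. A second Nr1d1 probe was above background at passage 20 only and gave a bound in the other direction, 0.58 log2. Cry2 and Per1, repressors of the loop, were 2.89-fold and 2.68-fold lower. Ciart, another repressor, was above background at passage 5 only, at least 2.04-fold lower, and is named after its value was seen. Rora, an activator, was 2.17-fold higher by its brighter probe and at 0.00 log2 by the other, and its call ended under 7 of 11 alternatives, so that no clock gene (0) was then higher. The Nr1d1 call ended with the mean over probes (-0.98 log2), and that of Ciart with normexp. The labels do not say at what hour either culture was harvested, and the part of the hour in these values was not tested. Bhlhe41, the closest relative of Bhlhe40, was well above background at neither passage.

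Markers of other cell types were set beside the lower genes, since Tgfbi and Tgfb1 are also expressed by mesenchymal and myeloid cells. Of 10 stellate and fibroblast markers 2 were measured, with a summed level of 3.53 at passage 20 and 3.88 at passage 5 (signals relative to the 75th percentile, added over measured markers). Dcn was above background at passage 5 only and at least 15.9-fold lower, whereas Reln was 1.66-fold higher. The defining fibroblast genes Col1a1, Col1a2, Col3a1, Pdgfra and Pdgfrb were well above background at neither passage. Of 5 mesothelial markers 4 were measured, with a summed level of 221 at passage 20 and 159 at passage 5, nearly all of it from Msln. Wt1 and Upk3b were above background at passage 5 only, and they were at least 2.02-fold and 4.34-fold lower, the Wt1 call ending with normexp.

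Of 8 leukocyte markers 4 were measured, with a summed level of 9.23 at passage 20 and 3.91 at passage 5. Most of this was Cd14, which was 2.67-fold higher, and Cd68, within 2-fold. Csf1r read 56.0 at passage 20, against 154 at passage 5, and Lyz2 read 31.7 at passage 20, against 122 at passage 5; both were above background at passage 5 only, and so were at least 1.28-fold and 1.02-fold lower. Ptprc, Adgre1, Itgam and Mpeg1 were well above background at neither passage. None of 6 endothelial markers was measured. Of 5 erythroid markers only Epor was measured, at passage 5 only, and was at least 1.55-fold lower. Dcn, Wt1, Upk3b, Csf1r, Lyz2 and Epor thus differed in the same direction as Tgfbi, Bhlhe40 and Tgfb1, as did Upk1b (-0.18 log2). The bound for Lyz2 was only -0.02 log2. Reln (0.73), Msln (0.48), Cd14 (1.42) and Cd68 (0.34 log2) differed in the other direction. The part of other cell types in the differences of Tgfbi, Bhlhe40 and Tgfb1 was not tested.

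**Figure D5:**
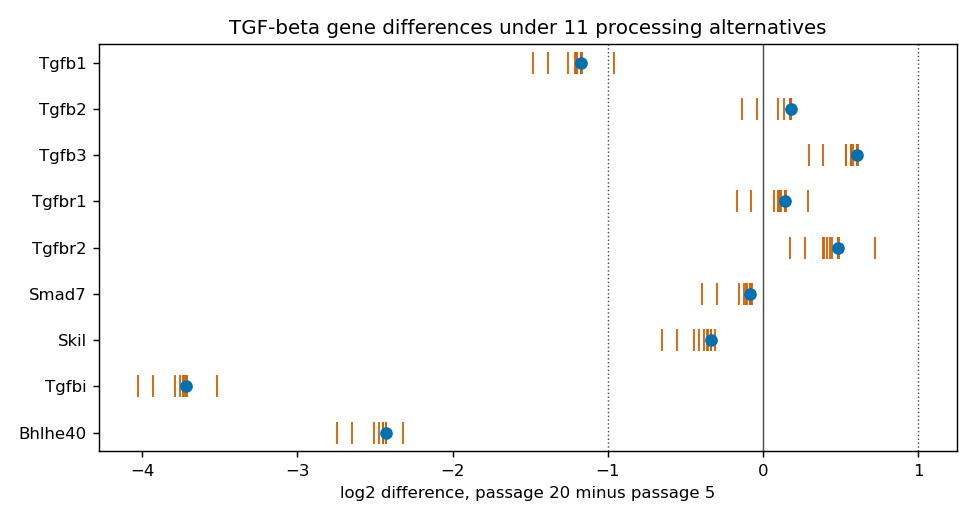
Log2 difference, passage 20 minus passage 5 (horizontal axis), of the 9 measured genes; blue dots are the values reported and orange ticks those under 11 processing alternatives, and dotted lines mark 2-fold. Tgfbi and Bhlhe40 stay beyond 2-fold under all 11, Tgfb1 crosses it under 1, and Tgfb2 and Tgfbr1 cross 0 under 2.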

How the data were processed

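Per the labels' protocols, amplified RNA carrying Cy3 was read on 1-colour Agilent arrays. Per the file headers, the scanner software was Agilent Feature Extraction 10.7.3.1; its deposited processed intensity per spot has background and spatial and multiplicative trends removed, with a surrogate for values not above noise. The deposited mean spot intensity and local background intensity served the normexp alternative only. The authors also deposited log2 values: once sorted, both columns matched to within 0.000609 (median 6.31 in each), and r with log2 of the processed intensity was 0.99986 for passage 20 and 0.99987 for passage 5, so they were read as quantile-normalized. Their tool is not stated in the sources used here. Other deposited columns flag each spot, per the file headers.

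Left out were control spots and any spot flagged as an outlier on either array (69 on the passage 20 array, 73 on the passage 5 array). A probe's level is the mean log2 signal of its spots less the 75th percentile of its array, which was a signal of 853 at passage 20 and 1085 at passage 5. For each gene the probe with the highest mean level was used. Probes were named by accession through RefSeq of GRCm38.p6 (27659), by symbol (5586) or by older symbol (471), and 7442 stayed unnamed. A probe above background on 1 array only gives a bound, measured against its own dim value or the dimmest detected probe of that array, whichever is higher (that probe is at -3.17 log2 at passage 20 and -3.32 at passage 5). A gene was called at 2-fold. Repeat printing (10 spots) covered 245 probes; for the 116 whose every spot cleared background on both arrays, the median spot SD was 0.058 log2 at passage 20 and 0.053 at passage 5. The scanner error combines the software's error of both signals. The number of arrays limits the precision.

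The genes and lists were chosen with earlier results of these data known. Named are all 10 genes, up to 4 genes per list with the largest differences, and markers. Markers beyond the brightest of a list, such as Wt1, Upk3b, Csf1r and Lyz2, are named after their values were seen. Acta2 and Tgm2 are named because their probes lay more than 2 log2 apart. Other measured genes that are named are marked as chosen after their values were seen. In the list of genes induced by TGF-beta, 1 gene is in the counts and median but is not reported here. Alternatives were normexp (offset 50), quantile, median, spike-in and loess scaling, the 75th percentile over detected probes, the authors' values, flagged spots kept, 2 other filters, the mean over probes, and thresholds of 1.5-fold and 4-fold. The gene step was run on simulated arrays with planted differences. In these no probe was above background on 1 array only, so the bounds were not tested. All planted differences lay well beyond 2-fold, so calls near the threshold were not tested either. limma 3.58.1 was used for normexp, quantile and loess. Promoters are RefSeq's.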

Additional observations from a re-analysis of the deposited data

How the results depend on the processing

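Of the 9 measured genes, Tgfb1, Smad7, Skil, Tgfbi and Bhlhe40 stayed lower and Tgfb3 and Tgfbr2 higher under all 11 alternatives. All alternatives use the same 2 arrays. The 2 other filters cannot change these values, nor can the mean over probes for genes with 1 probe. The Smad7 difference of -0.08 log2 was also smaller than its scanner error of 0.21. Tgfb2 and Tgfbr1 changed sign with median and spike-in scaling. Those scalings moved the median of all measured genes from 0.07 to -0.24 and -0.15 log2. Tgfb1 was the gene that left the 2-fold class, with normexp (-0.96 log2), so 2 genes were then lower; median scaling gave its lowest value (-1.48). At 1.5-fold 1 of the 9, Tgfb3, counted as higher. Over the 84 list genes, 10 higher and 9 lower became 6 and 13 with loess and 6 and 14 with median scaling. They became 7 and 13 with spike-in scaling, and 8 and 11 with quantile scaling or the authors' values. At 1.5-fold they were 14 and 16, and at 4-fold 3 and 1. Over all genes, 385 higher and 677 lower became 252 and 398 with normexp, 193 and 1127 with median scaling, 1286 and 1286 with no filter, 1230 and 1388 at 1.5-fold, and 59 and 161 at 4-fold; 230 were higher with spike-in scaling (970 lower), and 428 lower with both arrays above background. The share of higher genes among those called, 36.3%, was 14.6% with median, 19.2% with spike-in and 23.0% with loess scaling. The cause of these shifts was not tested. No paired analysis was possible because each passage has 1 array, and for the same reason no array could be left out. Signal over background limits Tgfbr3 and the dimmer probes of Tgfbr2.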

Other observations

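Probes of 1 gene disagreed widely in 3 of 49 pathway and marker genes with several measured probes, by more than 2 log2. The brighter probe of Acta2, the smooth muscle actin gene, read 21482 at passage 20 and 29241 at passage 5 (-0.10 log2), whereas its dimmer probe was above background at passage 5 only, with a bound of -3.11 log2. The brighter probe of the crosslinking enzyme gene Tgm2 differed by -0.95 log2 and its dimmer one, above background at passage 20 only, by at least 1.56. Both are genes known to be induced by TGF-beta. The third, Nr1d1, is a clock gene whose probes are described above.

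The dimmer probes of Tgfbr1 and Skil, above background on both arrays, lay 0.29 log2 above and 0.21 below the difference of the brighter probe of the same gene. In a comparison chosen after seeing the data, 1373 genes had a dimmest probe at least 8-fold dimmer than their brightest, both above background on both arrays. The dim probe had the higher difference in 47.6% of them, with a median gap of -0.03 log2. It was at least 2-fold above the bright one in 88 genes and at least 2-fold below in 43. For 1086 genes whose dimmest probe was within 2-fold of the brightest, the share was 47.1% and the median gap -0.01 log2. Of these, 36 had the dim probe at least 2-fold above and 26 at least 2-fold below.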
